A study of Mus musculus with 16 samples.

Results

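Messenger RNA of 9 genes of the aryl hydrocarbon receptor pathway and of the Cyp1a and Cyp2a enzymes was followed in mouse liver, out of 24082 genes in the deposited table. The members were taken by gene symbol, each from a single Ensembl gene ID, and comprised the receptor gene Ahr, its partner Arnt, the feedback gene Tiparp, the target genes Cyp1a1 and Cyp1a2, and the Cyp2a genes Cyp2a4, Cyp2a5, Cyp2a12 and Cyp2a22. All 9 were among the 12522 genes with enough counts to be tested. Livers came from 16 female C57Bl6/J mice that were 9 to 11 weeks old, with 4 mice in each of 4 groups. Pair control mice received the pair diet with vehicle and Pair IMC mice the pair diet with iodomethylcholine (IMC), while EtOH control and EtOH IMC mice received the Lieber-DeCarli chronic ethanol diet with vehicle or with IMC. IMC is a small molecule that blocks the gut bacterial enzyme which turns choline into trimethylamine, and it was mixed into the liquid diet at 0.06% wt/wt. For the chronic model that was used with IMC, ethanol was raised stepwise to 6% vol/vol over 25 days. The labels name no transgene or deletion and do not say which mice shared a cage. The comparisons address whether the inhibitor, the ethanol diet, or both together alter liver gene expression.

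The aryl hydrocarbon receptor (AHR) is a transcription factor that waits in the cytoplasm, bound to the heat shock protein HSP90, until a ligand enters the cell. Its ligands include plant compounds, products of tryptophan made by gut bacteria and by the host, and environmental toxicants. The bound receptor moves to the nucleus, pairs with ARNT and raises the transcription of Cyp1a1, Cyp1a2 and other detoxifying genes, among them Tiparp, whose product in turn dampens the receptor. CYP1A2 is a constitutive enzyme of hepatocytes around the central vein, whereas CYP1A1 is nearly silent in liver until the receptor is engaged. The CYP2A enzymes oxidise steroids, coumarin and nicotine. Their mouse genes lie together on chromosome 7, and Cyp2a4 and Cyp2a5 encode closely related enzymes with different substrates, testosterone and coumarin.

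The values are read counts divided by a factor for each library, brought to a common scale over all 16 libraries and called rescaled counts below. Libraries held between 9632659 and 12601199 reads on genes, with a median of 11503500, and a rescaled count is close to 1 read. The labels number the libraries, and the numbers 1 to 8 fall in Pair IMC and EtOH control and 9 to 16 in Pair control and EtOH IMC, with odd numbers in ethanol-fed and even numbers in pair-fed mice. What the numbers stand for is not given, so anything that followed odd and even numbers cannot be told apart from diet, and anything that followed low and high numbers cannot be told apart from the IMC effects within a diet, from the ethanol effects within control or within IMC-treated mice, or from the difference. Only the averaged effects hold equal numbers of low and high libraries on both sides. The study reports reduced diet intake and lower body weight for the EtOH IMC condition. A figure legend of the study also marks a body weight difference between pair-fed mice with and without IMC. Food intake and body weight were not analysed here and cannot be told apart from treatment. The 6 hepatocyte markers were high in every library, and their summed level spanned, in rescaled counts, 1083480 to 1749860 without and 1572790 to 1693530 with IMC in the pair-fed mice and 999123 to 1138770 without and 915068 to 1204800 with IMC in the ethanol-fed mice. Among IMC-treated mice, the sum was lower in every ethanol-fed than in every pair-fed mouse, and its part in the ethanol effects was not tested. Of 4 pancreatic markers, Cpa1, Prss2 and Pnlip had 3 reads or fewer in every library, as had the intestinal factor Cdx2, while Cela2a reached up to 13 reads. The pancreatic sum was 5.81 to 16.3 rescaled counts in Pair IMC, 0 to 4.05 in Pair control, 0 to 2.53 in EtOH control and 0.939 to 2.56 in EtOH IMC, highest in all Pair IMC mice, and its part in the comparisons with Pair IMC was not tested. Separate mice were labelled as separate samples, and error is the spread over mice.

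Where the genes lie is given in the GENCODE vM21 annotation of GRCm38. Ahr spans chr12:35497974-35535038 on the minus strand, Arnt chr3:95434388-95497240 and Tiparp chr3:65528410-65555518, both on the plus strand. Cyp1a1 (chr9:57687928-57703824, plus strand) and Cyp1a2 (chr9:57676937-57683703, minus strand) are neighbours that are transcribed away from each other. On chromosome 7, Cyp2a4 lies at chr7:26307169-26315088, Cyp2a5 at chr7:26835305-26843548 and Cyp2a12 at chr7:27029081-27037375, all on the plus strand, and Cyp2a22 at chr7:26931631-26939384 on the minus strand. Ahr overlaps the exons of Gm48236, Tiparp those of 4931440P22Rik and Cyp2a4 those of Gm42375, each on the opposite strand. The libraries were made with a directional kit, but the strand setting of the counting is not given in the sources used here, so reads of such partners may be included.

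The promoters were read because the receptor and ARNT bind a short DNA core, and because Cyp2a4 and Cyp2a5 are near copies of each other. Promoter windows from 250 bases before to 50 bases after the start site were matched by symbol in RefSeq (GRCm38.p6) for 8 of the 9 genes. The core GCGTG was sought on both strands, where it reads CACGC on the opposite strand. It was present in 32.386% of all 32851 windows. Among the genes described here it began at base -54 of Cyp1a1 and at -29 of Arnt on the strand of the gene, and at -170 of Tiparp on the opposite strand. No match stood in the windows of Cyp1a2, Cyp2a4, Cyp2a5, Cyp2a12 or Cyp2a22, which says only that these letters are not in this stretch. The 250 bases before the RefSeq start of Cyp1a1 (chr9:57697363-57697612, plus strand), with the core in capitals, and the upstream part of the Cyp1a2 window (chr9:57683704-57683905, minus strand), which holds none, are shown for the 2 classical target genes. All sequences run 5′ to 3′ and overlap no annotated exon of their own gene. The Cyp2a4 stretch lies within the span of Gm42375 on the opposite strand. Whether an exon of Gm42375 reaches it was not tested. The Cyp1a1 stretch lies within the longer span that GENCODE gives the gene, and so is intronic in its longest form.
Cyp1a1: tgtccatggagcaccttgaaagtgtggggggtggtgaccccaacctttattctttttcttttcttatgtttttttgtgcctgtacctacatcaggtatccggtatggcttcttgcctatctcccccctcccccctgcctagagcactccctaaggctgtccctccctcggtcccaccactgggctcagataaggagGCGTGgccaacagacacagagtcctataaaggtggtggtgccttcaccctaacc
Cyp1a2: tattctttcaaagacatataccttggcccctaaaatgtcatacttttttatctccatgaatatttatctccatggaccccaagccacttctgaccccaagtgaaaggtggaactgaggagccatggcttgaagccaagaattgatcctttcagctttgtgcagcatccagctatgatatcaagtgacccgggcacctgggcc

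The upstream stretches of Cyp2a4 (chr7:26306943-26307158, plus strand) and Cyp2a5 (chr7:26835089-26835304, plus strand) are shown because these genes are near copies of each other. The balance of their reads was compared between groups, and no difference passed adjustment. Capitals mark the 4 bases at which the stretches differ.
Cyp2a4: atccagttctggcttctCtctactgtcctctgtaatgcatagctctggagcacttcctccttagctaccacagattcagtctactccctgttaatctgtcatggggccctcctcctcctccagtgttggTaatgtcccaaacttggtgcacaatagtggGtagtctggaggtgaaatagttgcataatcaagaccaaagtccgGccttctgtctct
Cyp2a5: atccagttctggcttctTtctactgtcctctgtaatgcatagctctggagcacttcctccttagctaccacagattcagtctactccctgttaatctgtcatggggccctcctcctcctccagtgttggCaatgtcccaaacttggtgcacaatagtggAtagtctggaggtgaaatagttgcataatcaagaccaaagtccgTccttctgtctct

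Over the whole promoter window, Cyp2a4 and Cyp2a5 were 97.67% identical, against 84.24% for Cyp2a12 and Cyp2a22 and 53.27% to 55.49% for the other pairs of Cyp2a genes. Their transcripts matched at 98.27% of aligned bases, and those of Cyp2a12 and Cyp2a22 at 96.65%. This likeness bears on the counts, since a read can be assigned to a single gene only where it covers a difference. Of all 100-base stretches of the transcript, 11.2% of Cyp2a4 and 14.4% of Cyp2a5 also occur in another annotated gene. The share was 6.83% for Cyp2a12 and 6.36% for Cyp2a22, 1.46% for Cyp1a1 and 2.06% for Cyp1a2, and 0 for Ahr, Arnt and Tiparp. Counts of the Cyp2a genes are therefore less certain than those of the receptor genes.

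Per kilobase of transcript, Cyp2a4, Cyp2a5 and Cyp2a12 were the highest in every group and Cyp1a1 the lowest. The order can differ with the length used. For Cyp2a12 the transcript used had 1681 bases, while all annotated exons together hold 3457. For Arnt these lengths were 4325 and 8007 bases. In Pair control, Cyp2a4 stood at 6499.6 ± 3916 rescaled counts per kb (SD, n = 4), Cyp2a5 at 6365 ± 3134 and Cyp2a12 at 5099 ± 457, and neighbours in this order overlapped. Cyp2a22 at 2209.6 ± 835 and Cyp1a2 at 1766 ± 296 followed and overlapped each other. Arnt (136 ± 7.19) and Ahr (129 ± 17.2) were lower and not distinguishable from each other, Tiparp was lower still (43.1 ± 3.36), and Cyp1a1 had few reads (3.08 ± 1.66). The top of the order differed between groups. In Pair IMC, Cyp2a4 led with 14226 ± 4918 per kb and did not overlap Cyp2a5 (6284 ± 1886). In EtOH control, Cyp2a5 and Cyp2a12 overlapped at the top, at 7724 ± 4089.5 and 7654 ± 863, and Cyp2a4 followed below both with 4908 ± 679.9, outside the range of Cyp2a12. In EtOH IMC, Cyp2a5 (18054 ± 5347) and Cyp2a4 (13948 ± 4341) overlapped at the top, and Cyp1a2 (4265 ± 2002) ranked above Cyp2a22 (1727 ± 109), with overlap. Ahr and Arnt overlapped in all 4 groups, with Tiparp below both.

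**Figure D1:**
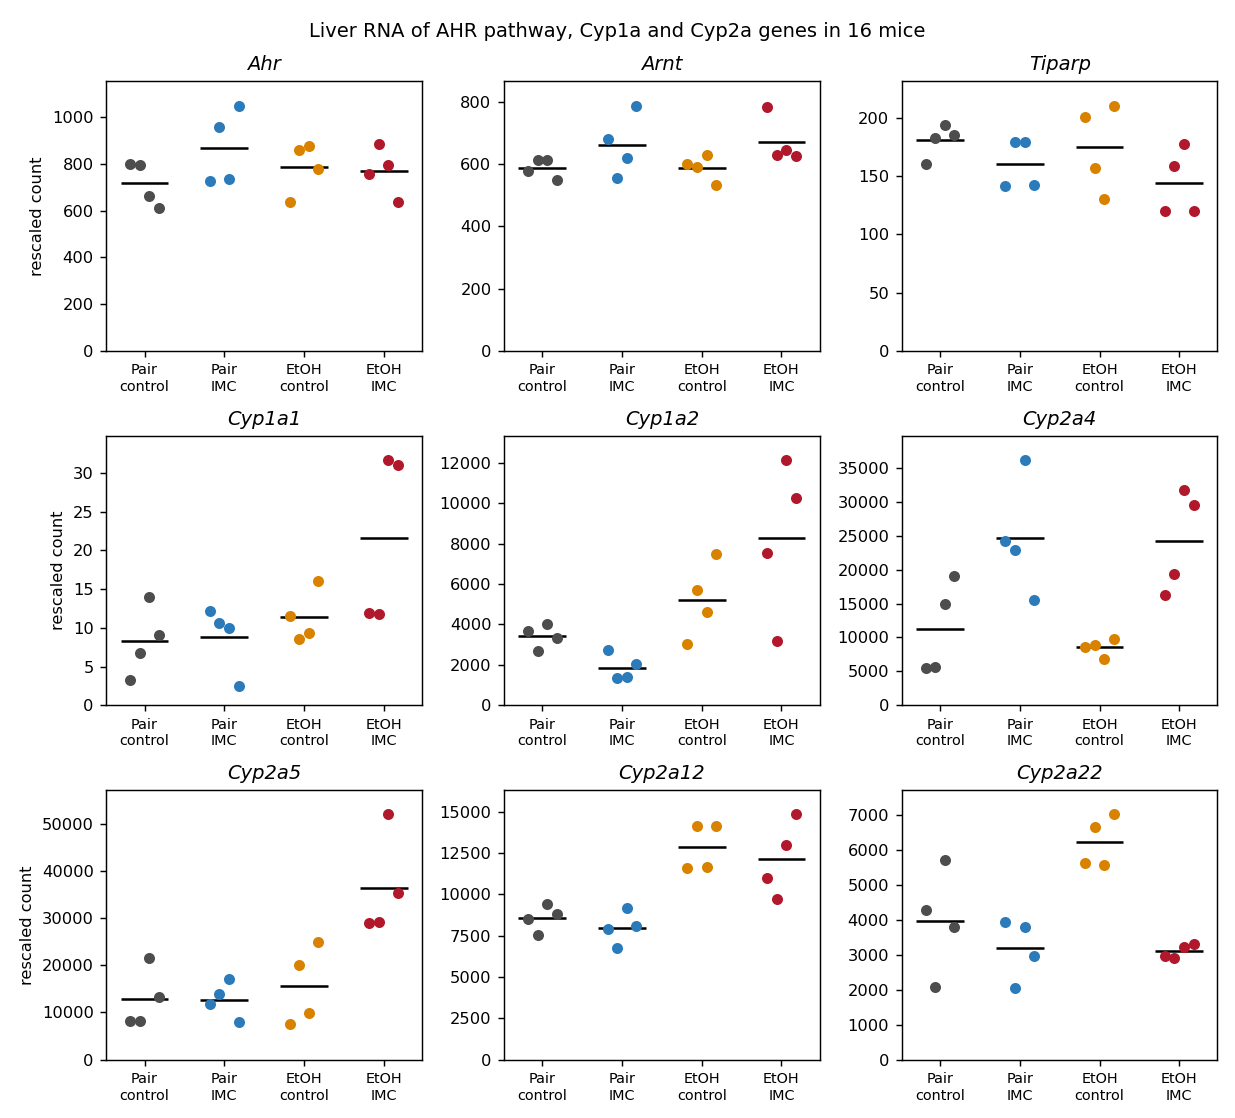
Rescaled count of each gene (vertical axes, each from 0) in the 4 mice of each group. Points are mice, in order of library number from left to right, and black lines are group means. Ahr, Arnt and Tiparp overlapped between groups, Cyp2a4 was higher on average in both IMC groups, Cyp2a12 was higher in both ethanol groups, and Cyp2a5 was highest in EtOH IMC.

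IMC in pair-fed mice moved 1 of the 9 genes past an adjusted p-value of 0.05, where 9.49% of all genes tested were called. IMC in ethanol-fed mice moved 3 of the 9, against 21.5% of all genes. Ethanol moved 2 of the 9 in control mice, against 11.9% of all genes, and 3 of the 9 in IMC-treated mice, against 16.5%. Averaged over both diets, the IMC effect was called for 2 of the 9 (28.2% of all genes), and averaged over control and IMC-treated mice, the ethanol effect was called for 3 of the 9 (26.1% of all genes). Since 9 genes are few, these counts are descriptions beside the shares of all genes. Every called member was a Cyp gene. No member passed the test of whether the IMC effect differed between diets, where 1.11% of all genes were called. That test gave unadjusted p-values under 0.05 for 3 of the 9 in limma, and also 0 calls and 3 unadjusted p-values under 0.05 in both edgeR and DESeq2. Over all genes, limma gave unadjusted p-values under 0.05 for 1911 of 12522 in that test.

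**Figure D2:**
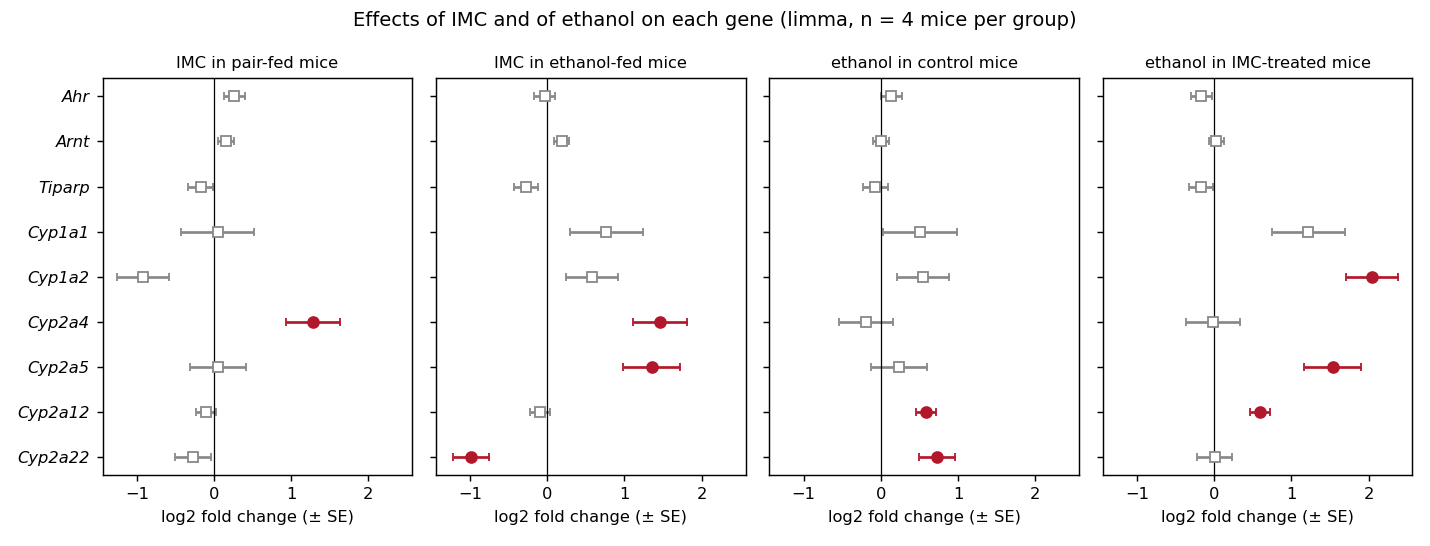
Log2 fold change of each gene (horizontal axis, with standard error from limma) in the 4 comparisons of single groups. Filled red circles passed the test at 0.05 among the 12522 genes and open grey squares did not. Red circles stand at Cyp2a4 in both IMC comparisons, at Cyp2a12 in both ethanol comparisons, at Cyp2a5 and Cyp2a22 for IMC in ethanol-fed mice, at Cyp2a22 for ethanol in control mice, and at Cyp1a2 and Cyp2a5 for ethanol in IMC-treated mice.

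The receptor gene Ahr was expressed in all groups, and no comparison called it. It held 802, 795, 663 and 611 rescaled counts in the Pair control mice and 726, 961, 738 and 1051 in Pair IMC. In EtOH control the values were 639, 861, 877 and 781, and in EtOH IMC they were 759, 886, 796 and 638. All pairs of groups overlapped. The log2 fold change was 0.27 ± 0.14 SE for IMC in pair-fed mice (adjusted p = 0.242) and -0.04 ± 0.14 in ethanol-fed mice (adjusted p = 0.885). For ethanol it was 0.14 ± 0.14 in control mice (adjusted p = 0.559) and -0.17 ± 0.14 in IMC-treated mice (adjusted p = 0.450). Ahr has other sources than hepatocytes in a liver, and in bulk tissue fewer cells of a type and less RNA per cell cannot be told apart, here and for every gene below.

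Arnt, the DNA-binding partner of the receptor, was not called either. Its values were 577, 613, 613 and 549 rescaled counts in Pair control and 682, 555, 618 and 788 in Pair IMC. They were 601, 592, 631 and 533 in EtOH control and 783, 629.6, 646 and 625 in EtOH IMC, where library 9 stood above the other mice. Groups overlapped in every comparison. The IMC effects were 0.16 ± 0.10 in pair-fed (adjusted p = 0.362) and 0.18 ± 0.10 in ethanol-fed mice (adjusted p = 0.213) on the log2 scale. Averaged over both diets, the IMC effect was 0.17 ± 0.07 (limma unadjusted p = 0.0304, adjusted p = 0.0879). The ethanol effects were 0.00101 and 0.0280 in control and IMC-treated mice (adjusted p = 0.996 and 0.882).

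Tiparp encodes a mono-ADP-ribosyltransferase that is induced by the receptor and restrains it. It held 161, 183, 193 and 185 rescaled counts in Pair control and 141, 179, 179 and 143 in Pair IMC. The ethanol-fed mice held 200.5, 157, 131 and 210.4 without and 119.7, 158, 177 and 120.2 with IMC. Mice of all groups overlapped, with a wider spread in the ethanol-fed groups. Log2 fold changes for IMC were -0.17 ± 0.16 in pair-fed (adjusted p = 0.528) and -0.27 ± 0.16 in ethanol-fed mice (adjusted p = 0.232). For ethanol they were -0.0693 and -0.17 (adjusted p = 0.813 and 0.501). No change of Ahr, Arnt or Tiparp passed adjustment over all genes tested in any of the 7 comparisons.

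Cyp1a1, the most receptor-dependent of the genes, was close to silent in every group. Pair control libraries had 3, 7, 12 and 9 reads and Pair IMC libraries 12, 11, 10 and 2 reads. EtOH control had 13, 8, 11 and 16 reads, and EtOH IMC had 14, 14, 32 and 33. Libraries 13 and 15 of EtOH IMC were the highest of all 16, while the other mice of that group lay among those of the other groups. Mean rescaled counts were 8.30 ± 4.47 (SD, n = 4) for Pair control, 8.81 ± 4.30 for Pair IMC, 11.3 ± 3.39 for EtOH control and 21.6 ± 11.2 for EtOH IMC. The ethanol effect in IMC-treated mice was a log2 fold change of 1.22 ± 0.47 SE and missed the threshold (adjusted p = 0.0869). The effect averaged over control and IMC-treated mice was 0.86 ± 0.34 (adjusted p = 0.0659) and passed without Pair control library 14 (adjusted p = 0.0426) or EtOH IMC library 11 (adjusted p = 0.0442). The ethanol effect in IMC-treated mice passed narrowly with DESeq2 on whole reads (adjusted p = 0.0489) and with the values as deposited (limma adjusted p = 0.0344). With the values as deposited, the median log2 fold change over all genes was itself 0.19 in this comparison. At this depth no change of Cyp1a1 by IMC was detected in either diet. The log2 fold changes were 0.0498 ± 0.47 in pair-fed mice (adjusted p = 0.965) and 0.76 ± 0.47 in ethanol-fed mice (adjusted p = 0.266).

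Cyp1a2, the constitutive hepatocyte enzyme that oxidises caffeine and aromatic amines, was higher in ethanol-fed than in pair-fed mice when both received IMC. Its rescaled counts were 3677, 2667, 4009.8 and 3351 in Pair control and 2713, 1334, 1391 and 2035 in Pair IMC. They were 3049, 5691, 4616 and 7463 in EtOH control and 7518, 3188, 12133 and 10257 in EtOH IMC. Every EtOH IMC mouse lay above every Pair IMC mouse, although library 11 was far below its group and within the range of Pair control. Cyp1a2 rose 4.13-fold with ethanol in IMC-treated mice (log2 fold change 2.05 ± 0.34 SE, adjusted p = 0.000830). In control mice the corresponding log2 fold change was 0.55 ± 0.34, with overlapping groups (adjusted p = 0.311), and the ethanol effect averaged over control and IMC-treated mice was 2.45-fold (log2 fold change 1.30 ± 0.24 SE, adjusted p = 0.000945). The IMC effects had opposite signs in the diets, -0.92 ± 0.34 in pair-fed (adjusted p = 0.0961) and 0.58 ± 0.34 in ethanol-fed mice (adjusted p = 0.239). Neither passed the threshold, and the difference between them, 1.50 ± 0.48, did not pass it either (adjusted p = 0.141). This depended on library 11 of EtOH IMC. Without it the difference was 1.90 (adjusted p = 0.0198) and the IMC effect in ethanol-fed mice 0.98 (adjusted p = 0.0198). The pair-fed effect does not use library 11 and stayed at -0.92. Its adjusted p became 0.0298, since the fit estimates the spread from all groups together.

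Cyp2a4, a testosterone hydroxylase whose liver level is female-biased and hormone-dependent in mice, rose with IMC in both diets. Pair control mice held 5563, 5588, 15012 and 19021 rescaled counts and Pair IMC mice 24296, 22884, 36181 and 15539. EtOH control mice held 8644, 8866, 6897 and 9712 and EtOH IMC mice 16335, 19341, 31699.5 and 29589.6. Pair control was split, with libraries 10 and 12 low and libraries 14 and 16 high, so that it overlapped Pair IMC, while every EtOH IMC mouse lay above every EtOH control mouse. The rise was 2.44-fold in pair-fed mice (log2 fold change 1.28 ± 0.35 SE, adjusted p = 0.0282) and 2.76-fold in ethanol-fed mice (log2 fold change 1.46 ± 0.35 SE, adjusted p = 0.00691). Averaged over both diets, Cyp2a4 rose 2.59-fold (log2 fold change 1.37 ± 0.25 SE, adjusted p = 0.000630), and the effects differed between diets by 0.18 ± 0.50 on the log2 scale (adjusted p = 0.900). Ethanol gave -0.20 ± 0.35 in control mice (adjusted p = 0.752) and -0.0193 ± 0.35 in IMC-treated mice (adjusted p = 0.977). The call in pair-fed mice rested on single libraries. It was lost without Pair control library 10 (adjusted p = 0.0855) or 12 (0.0873) and without Pair IMC library 2 (0.0570), 4 (0.0673) or 6 (0.0978), with log2 fold changes of 1.02 to 1.30 in these fits.

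Cyp2a5, the coumarin hydroxylase and the mouse counterpart of human CYP2A6, was highest in the mice that received both ethanol and IMC. It held 8115, 8294, 21570.2 and 13275 rescaled counts in Pair control and 11812, 13816, 17023 and 7952 in Pair IMC. It held 7458, 19996, 9906 and 24834 in EtOH control and 29019, 29254, 51911 and 35191 in EtOH IMC. All EtOH IMC mice lay above all other mice, and the EtOH control group was split between low (libraries 1 and 5) and high (libraries 3 and 7) values. With IMC, Cyp2a5 rose 2.55-fold in ethanol-fed mice (log2 fold change 1.35 ± 0.36 SE, adjusted p = 0.0141), whereas the log2 fold change in pair-fed mice was 0.0492 ± 0.36 (adjusted p = 0.953). With ethanol it rose 2.89-fold in IMC-treated mice (log2 fold change 1.53 ± 0.36 SE, adjusted p = 0.00895), and the value in control mice was 0.23 ± 0.36 (adjusted p = 0.716). The IMC effect was larger in ethanol-fed mice by 1.30 ± 0.51 on the log2 scale, which did not pass the test across genes (unadjusted p = 0.0211, adjusted p = 0.230). An IMC effect in 1 diet only was thus not shown. The call for IMC in ethanol-fed mice was lost narrowly without EtOH control library 1, at 1.05 (adjusted p = 0.0522). The IMC effect averaged over both diets was 0.70 ± 0.26 (adjusted p = 0.0502), and passed without Pair control library 14 (adjusted p = 0.0176), Pair IMC library 8 (0.0277) or EtOH control library 3 (0.0380) or 7 (0.0204). It also passed with all libraries under quantile normalization (adjusted p = 0.0336), with the values as deposited (0.0498) and with a pseudocount of 5 (0.0498). The averaged ethanol effect was 0.88 ± 0.26 (adjusted p = 0.0177).

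The balance between Cyp2a4 and Cyp2a5 was highest for Cyp2a4 in Pair IMC, although no difference in it passed adjustment. Cyp2a4 supplied 40.7, 40.3, 41.0 and 58.9% of the reads of both genes in the Pair control mice and 67.3, 62.4, 68.0 and 66.1% in Pair IMC. Its share was 53.7, 30.7, 41.0 and 28.1% in EtOH control and 36.0, 39.8, 37.9 and 45.7% in EtOH IMC. Every Pair IMC mouse had a larger Cyp2a4 share than every other mouse. The Pair control mean was 45.2% ± 9.13 (SD, n = 4) and the Pair IMC mean 65.9% ± 2.52 (SD, n = 4). With ethanol the means were 38.4% ± 11.6 (SD, n = 4) for control and 39.9% ± 4.18 (SD, n = 4) for IMC-treated mice. The difference of 20.7 percentage points with IMC in pair-fed mice had an exact two-sided permutation p of 0.0286, the smallest that the 70 arrangements of 4 against 4 mice allow, and 0.0571 after adjustment over the 4 comparisons. With ethanol in IMC-treated mice the difference in the mean was -26.1 percentage points, with the same exact p of 0.0286 and adjusted p of 0.0571. IMC in ethanol-fed mice moved the mean share by 1.46 percentage points (exact p = 0.857), and ethanol in control mice by -6.82 (exact p = 0.514). No share difference therefore passed 0.05 after adjustment, which 4 tests at this group size allow only if at least 3 of them reach the smallest exact p.

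Counted as a single gene, which removes the question of how shared reads were split between them, Cyp2a4 and Cyp2a5 together had mean rescaled counts (± SD, n = 4) of 24110 ± 12056 without and 37376 ± 12184 with IMC in the pair-fed mice and 24078 ± 9111 without and 60585 ± 17546 with IMC in the ethanol-fed mice. The sum rose with IMC in ethanol-fed mice (log2 fold change 1.37, adjusted p = 0.00914). In pair-fed mice the value was 0.72 and did not pass the test (adjusted p = 0.195). For ethanol in IMC-treated mice it was 0.71 (adjusted p = 0.168).

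**Figure D3:**
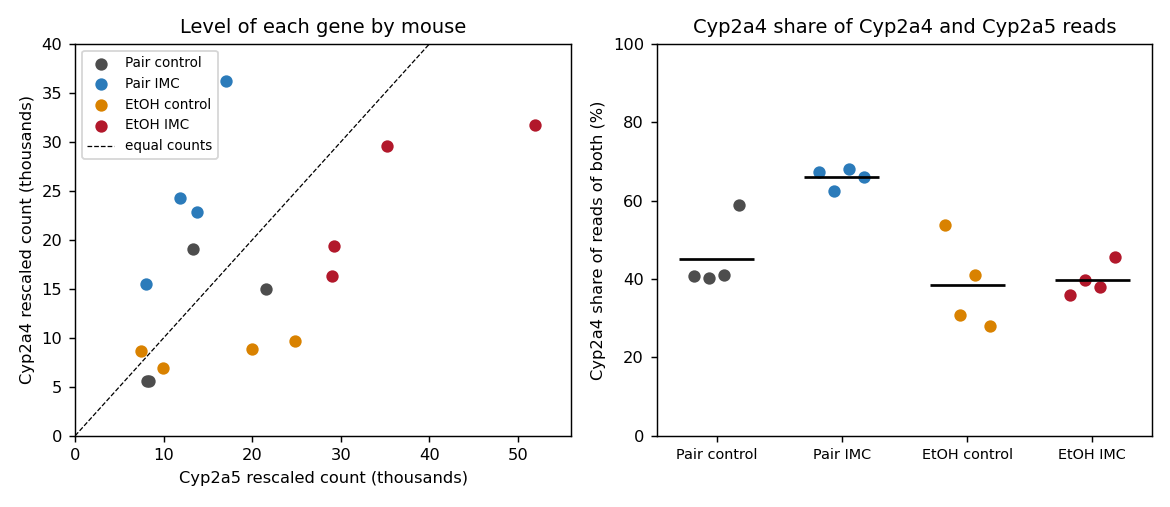
Left, rescaled counts of Cyp2a4 (vertical axis) against Cyp2a5 (horizontal axis) divided by 1000, 1 point per mouse, with a dashed line of equal counts. Right, the share of Cyp2a4 in the reads of both genes in percent, with group means as lines. The Pair IMC mice lie above the dashed line with shares of 62.4 to 68.0%, and the EtOH IMC mice lie below it at high counts of both genes.

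Cyp2a12, a steroid hydroxylase of hepatocytes, rose with ethanol whether or not IMC was given. Its rescaled counts were 8503, 7568, 9410.2 and 8807 in Pair control and 7913, 6773, 9152 and 8067 in Pair IMC. They were 11583, 14111, 11638 and 14136 in EtOH control and 10992, 9726, 13007 and 14824 in EtOH IMC. Every ethanol-fed mouse lay above every mouse of the pair-fed group it was compared with. The rise was 1.50-fold in control mice (log2 fold change 0.58 ± 0.13 SE, adjusted p = 0.00888) and 1.51-fold in IMC-treated mice (log2 fold change 0.60 ± 0.13 SE, adjusted p = 0.00549), and 1.50-fold on average (log2 fold change 0.59 ± 0.09 SE, adjusted p = 0.000244). These calls held in every fit that left out a library. IMC gave -0.11 ± 0.13 in pair-fed mice (adjusted p = 0.646) and -0.0959 ± 0.13 in ethanol-fed mice (adjusted p = 0.637). 

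Cyp2a22, the closest relative of Cyp2a12 in sequence, fell with IMC in ethanol-fed mice. It held 4271, 2080.4, 5717 and 3804 rescaled counts in Pair control and 3937, 2055, 3797 and 2971 in Pair IMC. It held 5613, 6644, 5579.8 and 7011 in EtOH control and 2975, 2904, 3212 and 3319 in EtOH IMC. The EtOH control mice all lay above the EtOH IMC mice, which were tightly grouped, while the pair-fed groups overlapped. IMC gave a 1.99-fold lower level in ethanol-fed mice (log2 fold change -0.996 ± 0.23 SE, adjusted p = 0.00601) and a log2 fold change of -0.27 ± 0.23 in pair-fed mice (adjusted p = 0.502). The difference between these, -0.73 ± 0.33, had an unadjusted p of 0.0411 and an adjusted p of 0.302. Without Pair control library 12 the pair-fed value was -0.55 (adjusted p = 0.0806) and the difference -0.44 (adjusted p = 0.445), while the pair-fed value was -0.0651 without Pair control library 14 and -0.0744 without Pair IMC library 4. Averaged over both diets, Cyp2a22 was 1.55-fold lower with IMC (log2 fold change -0.63 ± 0.16 SE, adjusted p = 0.00840). Ethanol in control mice raised it 1.66-fold at the edge of the threshold, with overlapping groups (log2 fold change 0.73 ± 0.23 SE, adjusted p = 0.0497). That call remained without Pair control library 14 or Pair IMC library 4 and was lost when any of the other 14 libraries was left out, with the smallest change, 0.45, without Pair control library 12 (adjusted p = 0.130). In IMC-treated mice the ethanol value was 0.00338 ± 0.23 (adjusted p = 0.994). In EtOH IMC mice, Cyp2a22 was within the range of the pair-fed mice while Cyp2a4, Cyp2a5 and Cyp2a12 stood at or near their highest.

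Proteins that hold the receptor in the cytoplasm or act beside it were read as a list of 6 genes, of which 4 were tested. For these and the following lists, values in parentheses are limma log2 fold changes ± SE with their adjusted p over all genes. Ahrr, the repressor induced by the receptor, had at most 6 reads in any library and was not tested, and neither was Arnt2. IMC in pair-fed mice moved 0 of the 4 in limma, edgeR and DESeq2, with unadjusted p-values under 0.05 for 0 of them in each (median log2 fold change -0.010), while in ethanol-fed mice 0 rose and 1 fell (median -0.28). Ethanol raised 3 in control mice (median 0.69) and 1 in IMC-treated mice (median 0.30), where DESeq2 called 2. Beside the counts of this and the following lists stand the shares of all genes called, which were 9.49% and 21.5% for IMC in pair-fed and ethanol-fed mice and 11.9% and 16.5% for ethanol in control and IMC-treated mice. The median over all genes was between -0.00721 and 0.00343 in these comparisons. For IMC in pair-fed mice, limma gave 3222 of the 12522 genes an unadjusted p under 0.05. Hsp90aa1, the stress-inducible form of the chaperone, had the largest change. Its mean rescaled counts were 1296 ± 159 (SD, n = 4) for Pair control, 1310.1 ± 199 for Pair IMC, 4197 ± 871 for EtOH control and 3489.8 ± 1249.7 for EtOH IMC, and it rose with ethanol in control mice (1.68 ± 0.24, adjusted p = 0.000543) and in IMC-treated mice (1.33 ± 0.24, adjusted p = 0.00144). Src, a kinase held in the same complex, fell with IMC in ethanol-fed mice (-0.56 ± 0.19, adjusted p = 0.0424) and rose with ethanol in control mice (0.76 ± 0.19, adjusted p = 0.0165).

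Other genes known to respond to the receptor formed a list of 10, of which 8 were tested and Ahrr and Aldh3a1 were too low. IMC in pair-fed mice raised 0 and lowered 1 of the 8 (median log2 fold change -0.025), and in ethanol-fed mice it raised 2 and lowered 2 (median 0.088). Ethanol raised 1 in control mice (median 0.18) and 2 in IMC-treated mice (median 0.26), and lowered 0 in either. The members did not move as a block. Nqo1, a quinone reductase, had mean rescaled counts of 141 ± 11.7 without and 163 ± 8.86 with IMC in the pair-fed mice and 279 ± 73.3 without and 517 ± 68.6 with IMC in the ethanol-fed mice. It rose with IMC in ethanol-fed mice (0.92 ± 0.15, adjusted p = 0.000575) and with ethanol in control (0.94 ± 0.15, adjusted p = 0.00142) and IMC-treated mice (1.65 ± 0.15, adjusted p = 3.46e-06), and its value for IMC in pair-fed mice was 0.21 (adjusted p = 0.428). Gsta1, a glutathione transferase with closely related copies that can share its reads, had the largest change of the list, from 70.8 ± 44.4 in EtOH control to 688 ± 406 in EtOH IMC (3.25 ± 0.62, adjusted p = 0.00156). Nqo1 and Gsta1 are also targets of the oxidative stress factor NRF2, whose own gene Nfe2l2 had log2 fold changes of -0.0575 for IMC in ethanol-fed mice (adjusted p = 0.751) and -0.15 for ethanol in IMC-treated mice (adjusted p = 0.405). Activity of the NRF2 protein was not measured, and its part in the Nqo1 and Gsta1 values was not tested. Slc46a3, a lysosomal transporter, fell with IMC in pair-fed (-1.03 ± 0.18, adjusted p = 0.00251) and in ethanol-fed mice (-0.84 ± 0.18, adjusted p = 0.00361), and Notum, a secreted lipase that inactivates WNT proteins, fell in ethanol-fed mice (-0.46 ± 0.14, adjusted p = 0.0274). Cyp1b1, a further receptor target, was low in all groups, with 3 to 22 reads per library, and its value for ethanol in IMC-treated mice was 0.89 (adjusted p = 0.193).

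Enzymes of tryptophan breakdown, some products of which are receptor ligands, were listed as 9 genes. Ido1 and Il4i1 were too low to test. Of the 7 tested, IMC lowered 3 in pair-fed mice (median log2 fold change -0.21) and 5 in ethanol-fed mice (median -0.47), and raised 0 in either, counts that DESeq2 also gave. In edgeR 1 of the 7, Aadat, was called in pair-fed mice, and Ido2 (adjusted p = 0.0552) and Afmid (adjusted p = 0.0532) were not. Ido2, a dioxygenase at the entry of the pathway, fell with IMC in pair-fed (-0.71 ± 0.20, adjusted p = 0.0316) and ethanol-fed mice (-1.07 ± 0.20, adjusted p = 0.00129). Afmid, the formamidase, fell likewise (-0.51 ± 0.15, adjusted p = 0.0420 and -0.96 ± 0.15, adjusted p = 0.000364), as did the aminotransferase Aadat (-0.51 ± 0.12, adjusted p = 0.0159 and -0.78 ± 0.12, adjusted p = 0.000335). Tdo2, the main tryptophan dioxygenase of hepatocytes, had values of -0.0559 and 0.28 (adjusted p = 0.871 and 0.252). Ethanol in control mice raised 3 of the 7 (Ido2 0.66, Afmid 0.65 and Kmo 0.43, adjusted p = 0.0378, 0.0118 and 0.0152), and ethanol in IMC-treated mice moved 0 in limma and in edgeR and 1 in DESeq2, with unadjusted p-values under 0.05 for 3 in each tool, where limma gave Kmo the value 0.27 (adjusted p = 0.0898) and Haao -0.32 (adjusted p = 0.0531). Over all genes, limma gave unadjusted p-values under 0.05 for 3837 of 12522 with ethanol in IMC-treated mice.

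**Figure D4:**
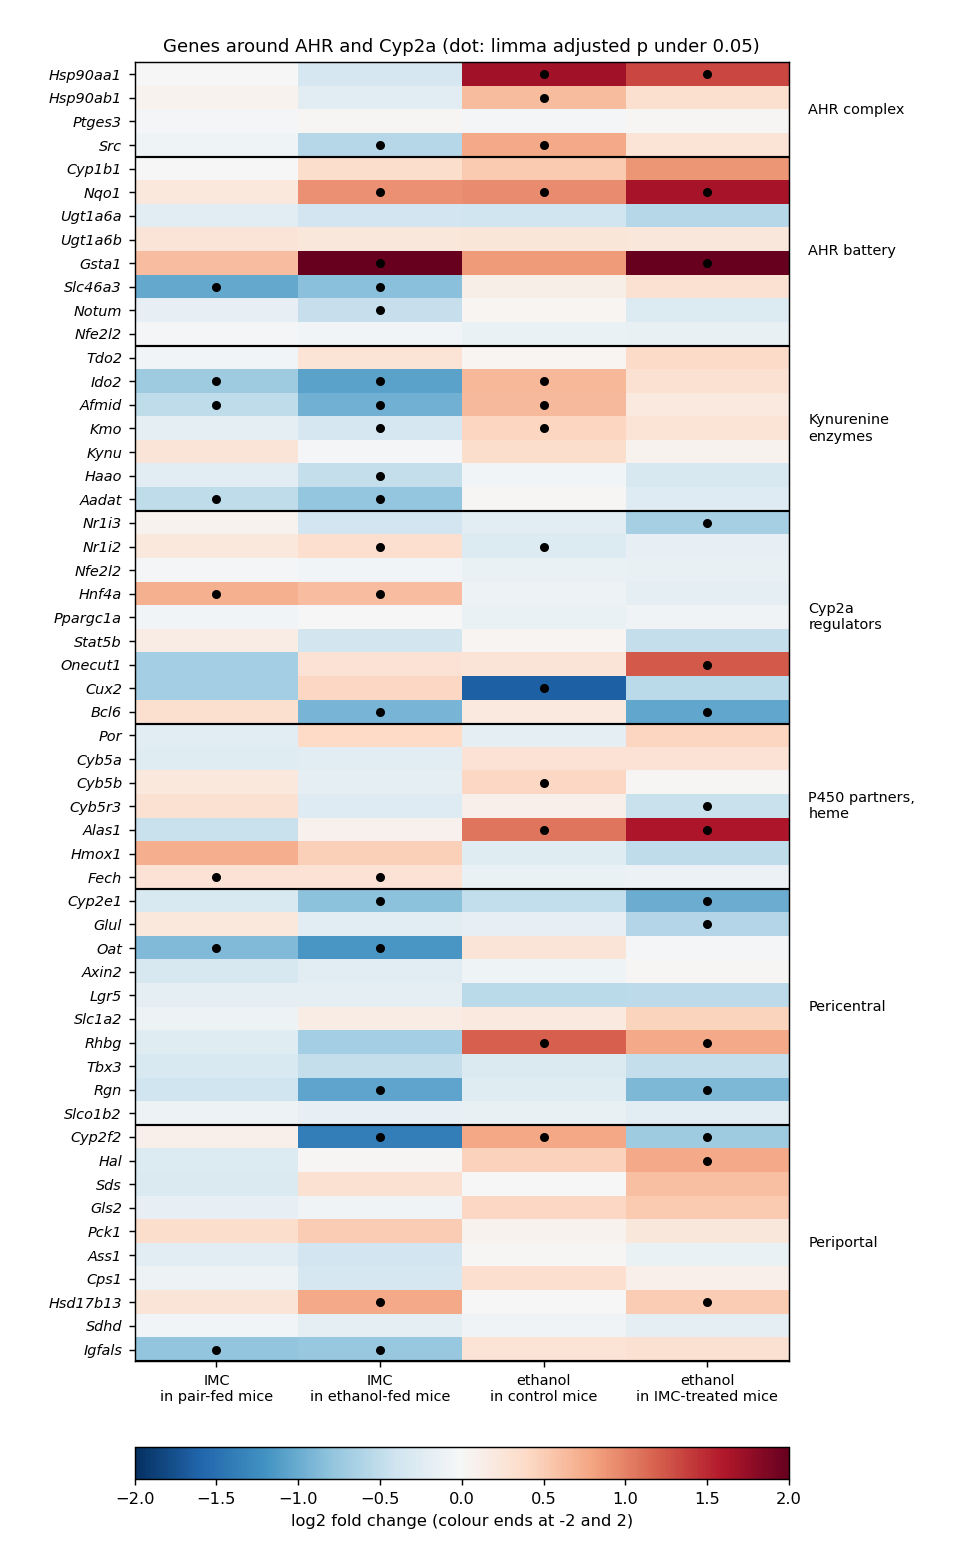
Log2 fold change (colour, from blue for lower to red for higher, ending at -2 and 2) of the tested genes of 7 lists in the 4 comparisons of single groups. Dots mark an adjusted p-value under 0.05. Ido2, Afmid and Aadat are blue with dots in both IMC columns, Hsp90aa1 and Alas1 are red with dots in both ethanol columns, and Nqo1 has dots in 3 of the 4 columns.

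Transcription factors known to act on Cyp2a genes formed a list of 9, all tested. IMC moved 1 up and 0 down in pair-fed mice (median log2 fold change 0.075) and 2 up and 1 down in ethanol-fed mice (median 0.0065). Hnf4a, a master regulator of hepatocyte genes, rose in both diets, from 8587 ± 1226 in Pair control to 14093 ± 2317 in Pair IMC (0.71 ± 0.13, adjusted p = 0.00322) and from 7982 ± 1055 in EtOH control to 12232 ± 837 in EtOH IMC (0.62 ± 0.13, adjusted p = 0.00298). Bcl6, a repressor that keeps female-biased liver genes low in males, fell with IMC in ethanol-fed mice (-0.92 ± 0.28, adjusted p = 0.0277) and with ethanol in IMC-treated mice (-1.04 ± 0.28, adjusted p = 0.0183). Ethanol lowered 2 and raised 0 in control mice (median -0.13), and lowered 2 and raised 1 in IMC-treated mice (median -0.19), where DESeq2 called 5 in all. The largest of these was Cux2, a female-biased factor of the liver, which went from 909 ± 109 in Pair control to 301 ± 92.7 in EtOH control (-1.64 ± 0.23, adjusted p = 0.000573). Onecut1, a hepatocyte factor, rose with ethanol in IMC-treated mice (1.23 ± 0.34, adjusted p = 0.0194). Nr1i3, the constitutive androstane receptor, fell with ethanol in IMC-treated mice (-0.66 ± 0.16, adjusted p = 0.0106) and had values of 0.0749, -0.38 and -0.21 in the other 3 comparisons (adjusted p = 0.813, 0.104 and 0.421). The part of any of these factors in the Cyp2a values was not tested.

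Cytochrome P450 enzymes need heme and electron donors, which were listed as 7 genes, all tested. In limma, IMC raised 1 in each diet and lowered 0, and DESeq2 called 3 in pair-fed mice (medians for the pair-fed and ethanol-fed comparison 0.20 and 0.091), in both cases Fech, the last enzyme of heme synthesis (0.29 ± 0.08, adjusted p = 0.0259 and 0.30 ± 0.08, adjusted p = 0.0113). Alas1, the rate-limiting enzyme of heme synthesis, rose with ethanol in control mice (1.08 ± 0.29, adjusted p = 0.0243) and in IMC-treated mice (1.61 ± 0.29, adjusted p = 0.00151), from 2802 ± 1138 in Pair control to 5544 ± 1416 in EtOH control and from 1965 ± 678 in Pair IMC to 5817 ± 826 in EtOH IMC. Por, the common electron donor, had values of -0.21, 0.40, -0.19 and 0.42 for IMC in pair-fed, IMC in ethanol-fed, ethanol in control and ethanol in IMC-treated mice, with adjusted p-values of 0.559, 0.185, 0.591 and 0.181. Ethanol called 2 genes up in control mice (median 0.11), and 1 up and 1 down in IMC-treated mice (median 0.016), the latter Cyb5r3 (-0.45 ± 0.11, adjusted p = 0.0104).

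CYP1A2 and the CYP2A enzymes are made mainly by hepatocytes near the central vein, so markers of both ends of the lobule were read beside them. Of 10 pericentral genes, IMC lowered 1 in pair-fed and 3 in ethanol-fed mice and raised 0 (medians -0.27 and -0.35), and ethanol raised 1 in control mice and raised 1 and lowered 3 in IMC-treated mice (medians -0.15 and -0.34). These are limma counts. DESeq2 called 5 for IMC in ethanol-fed mice, 2 for ethanol in control mice and 7 for ethanol in IMC-treated mice. Cyp2e1, the ethanol-oxidising P450 of pericentral cells, fell with IMC in ethanol-fed mice (-0.82 ± 0.20, adjusted p = 0.00891) and with ethanol in IMC-treated mice (-0.9999 ± 0.20, adjusted p = 0.00339), and had values of -0.30 for IMC in pair-fed mice (adjusted p = 0.376) and -0.49 for ethanol in control mice (adjusted p = 0.127). Oat, an ornithine aminotransferase, fell with IMC in both diets (-0.89 ± 0.24, adjusted p = 0.0267 and -1.17 ± 0.24, adjusted p = 0.00257), and Rhbg, an ammonium transporter, rose with ethanol in control (1.19 ± 0.24, adjusted p = 0.00438) and IMC-treated mice (0.76 ± 0.24, adjusted p = 0.0370).

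Of 10 periportal genes, IMC lowered 1 and raised 0 in pair-fed mice and lowered 2 and raised 1 in ethanol-fed mice (medians -0.14 and -0.12). Ethanol raised 1 in control mice (2 called by DESeq2), and raised 2 and lowered 1 in IMC-treated mice (medians 0.17 and 0.26). Cyp2f2, a periportal P450 of the same chromosome 7 cluster as the Cyp2a genes, fell with IMC in ethanol-fed mice (-1.38 ± 0.12, adjusted p = 2.52e-06) and rose with ethanol in control mice (0.78 ± 0.12, adjusted p = 0.00112), and in limma and edgeR was the only gene of the 10 whose IMC effect differed between diets (-1.49 ± 0.17, adjusted p = 0.000436), while DESeq2 also called Hsd17b13, a lipid droplet protein (adjusted p = 0.0242, against 0.101 in limma). The mean rescaled counts of Cyp2f2 were 5323 ± 187 (SD, n = 4) for Pair control and 5766 ± 642 for Pair IMC. They were 9224 ± 1447 for EtOH control and 3537 ± 617 for EtOH IMC, with the highest mean in the same group as Cyp2a22. Igfals, a carrier of insulin-like growth factors, fell with IMC in pair-fed mice (-0.79 ± 0.16, adjusted p = 0.00699), and Hal, the histidine ammonia lyase, rose with ethanol in IMC-treated mice (0.76 ± 0.16, adjusted p = 0.00421). Whether a shift between zones has a part in the Cyp1a2 and Cyp2a values was not tested.

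Markers of other liver cells moved in places. The summed level of 6 Kupffer cell markers spanned, in rescaled counts, 2037 to 5915 without and 2336 to 3371 with IMC in the pair-fed mice and 3377 to 4529 without and 2536 to 3999 with IMC in the ethanol-fed mice. Sums over 5 stellate cell markers were 2690.3 to 3686 without and 2730.1 to 3392 with IMC in the pair-fed mice and 3915 to 4592 without and 2546 to 3438 with IMC in the ethanol-fed mice. All EtOH control mice lay above all mice of the other 3 groups, so this sum moved with ethanol in control mice, where Cyp2a12 and Cyp2a22 were called, and with IMC in ethanol-fed mice. Reln fell with IMC in ethanol-fed mice (-1.26 ± 0.17, adjusted p = 8.64e-05) and Lrat rose with ethanol in control (1.16 ± 0.20, adjusted p = 0.00202) and IMC-treated mice (1.25 ± 0.20, adjusted p = 0.000679). Sums over 5 sinusoidal markers were 2256 to 2929 without and 2361 to 2934 with IMC in the pair-fed mice and 2813 to 3159 without and 2332 to 3222 with IMC in the ethanol-fed mice, and Clec4g rose with ethanol in IMC-treated mice (0.38 ± 0.12, adjusted p = 0.0424). The bile duct sum was 133 to 468 in Pair control and 81.3 to 118 in Pair IMC, and Krt7 fell with IMC in pair-fed mice (-1.52 ± 0.44, adjusted p = 0.0385). The sum of 4 intestinal markers was 1262 to 1402 without and 729 to 931 with IMC in the pair-fed mice and 1100.2 to 1234 without and 332 to 1432 with IMC in the ethanol-fed mice. It was lower in all Pair IMC than in all Pair control mice. Among these markers, Fabp2 was lower on average with IMC in ethanol-fed mice (-1.40 ± 0.37, adjusted p = 0.0121) and Lgals4 fell with ethanol in control (-0.82 ± 0.15, adjusted p = 0.00305) and IMC-treated mice (-0.98 ± 0.15, adjusted p = 0.000527). Mean rescaled counts of Fabp2 were 961 ± 51.7 (SD, n = 4) in EtOH control and 496 ± 501 in EtOH IMC, a wide spread. They were 1000 ± 58.8 in Pair control and 537 ± 69.7 in Pair IMC, where 0 intestinal markers were called for IMC. The part of these markers in the values of the 9 genes was not tested.

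Genes whose level over the 16 libraries was most like that of each member were sought by Pearson correlation of log2 values, given as a description. The libraries share their groups and a common scale. The nearest genes of Ahr were Dmxl2 (r = 0.77), Pkd1 (r = 0.76) and Brwd3 (r = 0.75). Those of Arnt were Arf6 (r = 0.78), Rapgef5 (r = 0.78) and Cdkn1a (r = 0.77), and those of Tiparp were Bhlhe40 (r = 0.82), Sox6 (r = 0.79) and 2900026A02Rik (r = 0.76). The highest correlation of each of these 3 genes was below that of each Cyp gene. For Cyp1a1 they were Tubg1 (r = 0.93), Abcf1 (r = 0.89) and Raly (r = 0.87), and for Cyp1a2 Bid (r = 0.88), Sil1 (r = 0.88) and Slc1a4 (r = 0.86). Cyp2a4 was nearest to Rack1 (r = 0.94), Rps6 (r = 0.94) and Ubqln4 (r = 0.93), and Cyp2a5 to Tubg1 (r = 0.89), Dnajc21 (r = 0.87) and Blvrb (r = 0.87). Tubg1 stood first for both Cyp1a1 and Cyp2a5, each of which was highest in EtOH IMC. Among the nearest genes were Mmp19 (r = 0.93), Bcs1l (r = 0.91) and Poglut1 (r = 0.91) for Cyp2a12 and Fgf1 (r = 0.88) and Cyp2b9 (r = 0.87) for Cyp2a22.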

How the data were processed

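Counts per gene were made by the authors from liver RNA libraries of 16 mice (Illumina TruSeq Directional kit). Per the labels and the study's methods, reads were trimmed with Trim Galore, checked with FastQC and aligned to mm10 with STAR. The counting program and its strand setting are not given in the sources used here, and the labels and methods differ on whether reads were paired. The deposited signal values are read counts divided by a factor for each library. 1 read was worth 0.906 to 1.18, and dividing by it gave numbers within 0.01 of a whole number for 100% of values above 0 in each library. Upper-quantile scaling by edgeR is what the study's methods state. The table holds 27212 rows for 24082 Ensembl IDs, and 430 IDs listed under several symbols were used once.

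The deposited factors appeared to have been set within each diet, which the sources used here do not state. All 16 columns were therefore rescaled by a median ratio over 13121 genes above 0 in every library. Rescaling factors were 0.940 to 0.945 for pair-fed and 1.07 to 1.08 for ethanol-fed libraries. Genes with a rescaled count of at least 10 in at least 4 libraries (12522) entered a single limma (3.58.1, R 4.3.3) fit of log2(value + 1) over all 16 libraries, with group means, two-sided tests and a mean-variance trend, and p-values were adjusted over all genes tested by Benjamini-Hochberg (threshold 0.05). Fold changes are on the log2(value + 1) scale and understate changes of low genes such as Cyp1a1. Depth (9632659 to 12601199 reads per library) limits genes with few reads, and counting error of reads without molecular identifiers is not independent of amplification. The Cyp2a4 share was compared by exact permutation over 70 arrangements. Alternatives were the values as deposited, quantile normalization, pseudocounts of 0.1 and 5, no filter, only the libraries of a comparison, no trend, count models on the whole reads (DESeq2 1.42.0, edgeR 4.0.16), Cyp2a4 and Cyp2a5 summed, and each library left out in turn. edgeR without library 15, where 1 read is worth 1.01 and reads are least securely told from scaled values, was added after the data were seen. The fits were tested on simulated data. Levels per kilobase use the longest protein-coding transcript of each gene in the GENCODE basic set. Named genes were the 9 members, Ahrr, Cyp1b1, Nqo1, Nr1i3 and Cyp2e1, the called gene with the largest change of each list and comparison of single groups, and the 3 genes most like each member. Some genes under this rule are not reported here. Other genes named from the lists (Afmid, Aadat, Kmo, Haao, Tdo2, Notum, Nfe2l2, Por, Cyb5r3, Hsd17b13 and Cela2a) were chosen after their values were seen. The members and lists were chosen with earlier results of these data known. Figures were drawn with matplotlib 3.10.9.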

Additional observations from a re-analysis of the deposited data

Results flagged for a closer look

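Within each group of 4, the gap between the most extreme library and its neighbour was compared with the range of the group (Dixon's ratio, at its usual critical value for 4 values). Of 40 groups of values tested, 2 exceeded it, and chance exceeds it in about 1 of 20. Arnt in library 9 of EtOH IMC stood at 783 rescaled counts, while the other mice of the group stood at 625 to 646. Without it, the log2 fold change of Arnt for IMC in ethanol-fed mice was 0.11 (limma adjusted p = 0.489). The share of Cyp2a4 in the reads of Cyp2a4 and Cyp2a5 was 58.9% in library 16 of Pair control, against 40.3 to 41.0% in the other mice of the group and 62.4 to 68.0% in Pair IMC.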

How the results depend on the processing

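Effects of ethanol rest on the rescaling. With the values as deposited, the median of all genes moved to 0.18 in control and 0.19 in IMC-treated mice on the log2 scale, 3002, 3620 and 5221 genes were called for ethanol in control mice, in IMC-treated mice and on average in place of 1491, 2064 and 3273, and 93.3%, 87.8% and 90.5% of them were higher with ethanol in place of 53.3%, 47.8% and 49.6%. Of the 9 genes, 6 were then called for the averaged effect in place of 3, and signs turned for Ahr (0.0261), Tiparp (0.0212) and Cyp2a4 (0.17) with ethanol in IMC-treated mice and for Tiparp in control mice (0.12). Upper-quartile scaling in edgeR moved the share of higher calls for all genes by under 10 percentage points.

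For IMC in pair-fed mice, 0 of the 9 genes were called in place of 1 with no mean-variance trend, with upper-quartile scaling, with edgeR without library 15 and with Cyp2a4 and Cyp2a5 summed, and the count was 0 to 2 with a library left out. With only the 8 libraries of the comparison 1 was called, but it was Cyp1a2 (adjusted p = 0.0339) and not Cyp2a4 (adjusted p = 0.0831). For ethanol in control mice 1 was called in place of 2 under quantile normalization, a pseudocount of 0.1, no filter, only the libraries of the comparison, no trend, and edgeR with TMM, with upper quartiles and without library 15, and 1 to 2 with a library left out. Leaving out a library gave 0 to 1 for the difference between diets and 3 to 5 for the averaged ethanol effect, with 5 without Pair control library 14, where Cyp1a1 and Cyp2a22 were added.

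Signs turned only for values below the threshold in the limma fit of all libraries. Cyp2a5 with IMC in pair-fed mice was -0.0197 with TMM, -0.0435 with upper quartiles, -0.0204 with DESeq2 and -0.0197 without library 15. Cyp2a22 with ethanol in IMC-treated mice was -0.0313, -0.00358, -0.0404 and -0.0671 in the same order. Cyp2a4 with ethanol in IMC-treated mice was 0.00709 with upper quartiles, Ahr with IMC in ethanol-fed mice 0.0459 in edgeR without library 15, and Cyp2a12 with IMC in ethanol-fed mice 0.0610 under quantile normalization. With a library left out, log2 fold changes crossed 0 for IMC in pair-fed mice in Cyp1a1 (-0.27 to 0.49) and Cyp2a5 (-0.13 to 0.34), for IMC in ethanol-fed mice in Ahr (-0.13 to 0.0520) and Cyp2a12 (-0.20 to 0.00446), for the difference between diets in Cyp2a4 (-0.15 to 0.45), for ethanol in control mice in Arnt (-0.0329 to 0.0481), Tiparp (-0.17 to 0.0611), Cyp2a4 (-0.47 to 0.13) and Cyp2a5 (-0.0490 to 0.53), and for ethanol in IMC-treated mice in Arnt (-0.0521 to 0.12), Cyp2a4 (-0.22 to 0.19) and Cyp2a22 (-0.19 to 0.12). The Cyp2a4 share with IMC in ethanol-fed mice moved by -1.96 to 6.56 percentage points. The causes were not tested.

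On the recovered reads, edgeR called 1159 genes for IMC with the pair diet and 2795 with ethanol (1188 and 2694 in limma), 114 for the difference (139) and, for ethanol, 1551 without and 2042 with IMC (1491 and 2064). Counts over all genes moved by more than 1.5 times in further cases. IMC in pair-fed mice gave 691 calls with only its own libraries, 537 without Pair IMC library 4 and 543 without library 6, in place of 1188. The difference between diets gave 80 with no filter, 82 with no trend, 339 with DESeq2, 72 in edgeR without library 15 and 54 to 84 without any of 11 libraries (Pair control 12 or 14, Pair IMC 2, 6 or 8, EtOH control 1, 3, 5 or 7, EtOH IMC 13 or 15), with 54 without EtOH control library 5, in place of 139. Ethanol in control mice gave 974 without Pair control library 14 and 803 without EtOH control library 5, and ethanol in IMC-treated mice 1344 in edgeR and 1368 in limma without library 15. A fit on only the libraries of a comparison could not be made for the averages and the difference, which use all 16. No paired analysis was possible because the groups share no replicate number.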
